A study of Mus musculus with 6 samples.

Results

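The 31 genes described here encode the enzymes that build cholesterol and fatty acids, the regulators of sterol regulatory element-binding proteins (SREBPs), and 3 proteins that move sterols. They were chosen by name from a table of 54418 genes, by a rule on gene function, and all 31 had a row. RNA was measured in mouse AKP organoids, which are epithelial cultures grown in gel as small self-organised structures. Both groups carry the AKP name, which the labels do not spell out, and the series is about colorectal cancer metastasis. One group of 3 libraries has the genotype label Control and the other group of 3 has the label GATA6KO, a knockout of the endodermal transcription factor GATA6. The labels name no treatment, clone or tumour site of origin for these cultures. Whether replicates were separate cultures is not said either, and p-values here reflect library-to-library spread, possibly technical.

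Total estimated counts ran from 22973245 to 31328415 per library. The targeted gene Gata6 was counted 577, 669 and 840 times in the Control libraries, in replicate order, and 427, 489 and 247 times in the GATA6KO libraries. Its log2 fold change was -0.99 (edgeR adjusted p = 0.0486), and it was not called without any 1 Control library (adjusted p = 0.128 to 0.181). All 7 intestinal epithelium markers were detected in every library, with a summed level of 5357 to 5557 CPM (counts per 1000000, scaled between libraries by TMM) in Control and 3623 to 4223 CPM in GATA6KO. All 7 had negative log2 fold changes, and 2 (Cdh1 and Krt8) were called lower, against 5.47% of all genes tested. For 6 the GATA6KO values lay below every Control value, against 20.5% of all genes tested. Cdx1 stood at 1.51 CPM in GATA6KO replicate 2 and at 12.9 to 20.2 CPM in the other libraries. Summed fibroblast markers stayed at or below 0.700 CPM and endothelial markers at or below 0.667 CPM in all 6 libraries. Chromosome 14 was low in 1 library: the log2 ratio to Control over its genes had a median of -0.90 in GATA6KO replicate 2, and of -0.09 and 0.04 in replicates 1 and 3. The share of mitochondrially encoded transcripts was 1.85% to 1.88% over the Control libraries, and 2.07%, 2.84% and 2.81% over GATA6KO replicates 1 to 3.

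Cells make cholesterol from acetyl-CoA through mevalonate, isoprenoid diphosphates, squalene and lanosterol. When sterols in the endoplasmic reticulum fall, SCAP escorts SREBPs to the Golgi, where proteases free a transcription factor that turns on most genes of this route. INSIG proteins hold SCAP back when sterols are plentiful. SREBP2 acts mainly on sterol genes and SREBP1 mainly on fatty acid genes, while oxysterols activate the liver X receptors (LXRs), which induce the sterol exporters ABCA1 and ABCG1. The intestinal epithelium both synthesises cholesterol and takes it up from the gut lumen.

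SREBPs bind sterol regulatory elements, usually beside sites for NF-Y (the CCAAT box) or Sp1 (the GC box). Of the 31 genes, 24 matched the RefSeq promoter table (build GRCm38.p6, the assembly of mm10), which holds windows of 300 bases from 250 before to 50 after a gene's start. Each window was searched on both strands for 4 motifs. TCACNCCAC, the core of a sterol regulatory element, was in 1 of the 24 genes, Hmgcs1, and in 1.44% of all 27025 genes in the table. Only this exact spelling was searched, so promoters without it may hold other forms of the element. CCAAT was in 19 of the 24 (79.2%), against 41.1% of all genes in the table and 43.4% of its genes that were expressed enough to be tested here. GGGCGG was in 20 of the 24 (83.3%), against 38.2% and 67.4%. AGATAA, a form of the GATA site, was in 0 of the 24, against 12.7% and 7.94%. A match is a description of letters and not a measured binding site.

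The 250 bases before the start are shown for Hmgcs1, the only gene with that exact sterol element core, and for Idi1, an isoprenoid enzyme of the same route. They are also shown for the 3 genes called higher in GATA6KO whose promoters the table holds, Fasn, Elovl6 and Abca1. Each is written 5′ to 3′ on the gene's strand, with the sterol element core and CCAAT boxes on either strand in capitals.
Hmgcs1, chr13:119690101-119690350 (plus strand): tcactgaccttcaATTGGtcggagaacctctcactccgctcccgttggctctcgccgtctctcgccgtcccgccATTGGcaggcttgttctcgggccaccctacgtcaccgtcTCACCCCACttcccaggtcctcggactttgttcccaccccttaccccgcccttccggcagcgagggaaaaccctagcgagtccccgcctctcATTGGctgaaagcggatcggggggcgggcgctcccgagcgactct
Idi1, chr13:8885356-8885605 (plus strand): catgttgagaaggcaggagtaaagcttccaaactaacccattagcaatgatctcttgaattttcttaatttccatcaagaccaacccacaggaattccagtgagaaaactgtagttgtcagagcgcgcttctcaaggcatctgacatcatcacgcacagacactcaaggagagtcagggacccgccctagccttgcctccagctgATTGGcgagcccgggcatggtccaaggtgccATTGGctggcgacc
Fasn, chr11:120824548-120824797 (minus strand): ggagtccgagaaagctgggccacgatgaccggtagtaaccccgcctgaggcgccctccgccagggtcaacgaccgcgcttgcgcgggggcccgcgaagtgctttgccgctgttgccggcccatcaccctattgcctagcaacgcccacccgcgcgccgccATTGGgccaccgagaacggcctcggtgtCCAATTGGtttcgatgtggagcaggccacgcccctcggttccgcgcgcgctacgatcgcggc
Elovl6, chr3:129532136-129532385 (plus strand): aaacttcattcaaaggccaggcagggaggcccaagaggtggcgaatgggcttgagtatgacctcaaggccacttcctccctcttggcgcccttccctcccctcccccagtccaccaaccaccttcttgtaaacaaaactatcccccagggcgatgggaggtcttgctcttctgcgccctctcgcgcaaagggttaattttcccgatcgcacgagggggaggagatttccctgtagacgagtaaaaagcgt
Abca1, chr4:53159896-53160145 (minus strand): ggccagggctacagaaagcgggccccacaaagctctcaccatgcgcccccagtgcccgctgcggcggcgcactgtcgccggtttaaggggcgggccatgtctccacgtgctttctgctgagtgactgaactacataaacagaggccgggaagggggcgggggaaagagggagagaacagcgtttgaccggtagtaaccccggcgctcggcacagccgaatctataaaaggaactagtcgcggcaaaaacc
The Hmgcs1 stretch holds the sterol element core and 3 CCAAT boxes, the Idi1 stretch 2 CCAAT boxes and the Fasn stretch 3, of which a pair overlaps. Elovl6 and Abca1 have no capitals, so neither motif occurs in these letters.

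Abcg1, Abca1, Fasn and Elovl6 were higher in GATA6KO than in Control, and none of the 31 genes was called lower. All 31 passed the filter on low counts. Abcg1 reached its level in 0 Control libraries and Abca1 in 2, so both needed GATA6KO libraries to pass. By edgeR's quasi-likelihood test with Benjamini-Hochberg adjustment over 14714 genes and a threshold of 0.05, 4 of 31 rose, against 6.92% of all genes tested that rose. Abcg1 and Abca1 are among these 4, so the count is no evidence about the 31 genes as a set. In the other direction 0 of 31 fell, against 5.47% of all genes tested, and 0 fell by DESeq2 or limma-voom. At an unadjusted p below 0.05 there were 7 of 31 members, all of them higher, a smaller share than the 31.7% of all genes tested that passed it in either direction. The median log2 fold change was 0.01 over the 31 genes and 0.02 over all genes tested. Group values did not overlap for 10 of the 31, against 40.8% of all genes tested. GATA6KO was above Control for 7 of them, against 20.3% of all genes tested, and below for 3, against 20.5%. In bulk RNA, fewer cells that express a gene and less RNA per cell cannot be told apart.

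**Figure D1:**
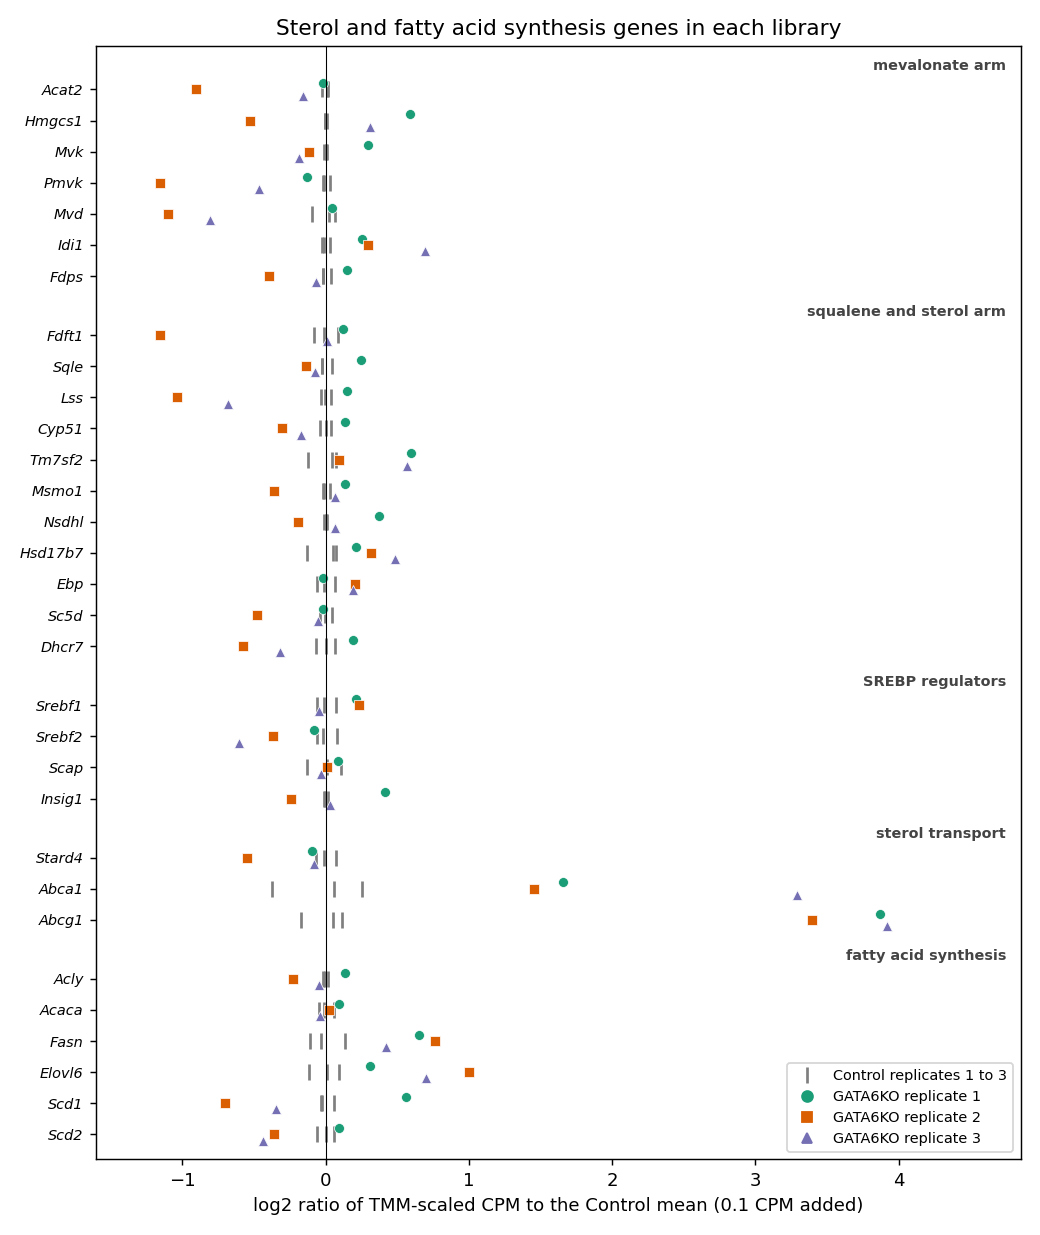
Each of the 31 genes is a row, and the horizontal axis is the log2 ratio of a library's TMM-scaled CPM to the mean of the Control libraries, with 0.1 CPM added. Grey ticks are the 3 Control libraries and coloured symbols the 3 GATA6KO libraries. Abca1 and Abcg1 lie far to the right in all 3 GATA6KO libraries, and GATA6KO replicate 2 (squares) lies to the left for most enzymes of sterol synthesis.

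The mevalonate arm runs from acetyl-CoA to farnesyl diphosphate. None of its 7 genes was called, and their log2 fold changes ran from -0.54 (Mvd) to 0.43 (Idi1). Hmgcs1, which condenses acetyl-CoA and acetoacetyl-CoA, measured 607, 612 and 608 CPM in Control replicates 1 to 3 and 916, 423 and 756 CPM in GATA6KO replicates 1 to 3. The Control libraries were nearly level, while 2 GATA6KO libraries lay above them and 1 below. Its log2 fold change was 0.20 with a 95% interval from -0.42 to 0.82 (adjusted p = 0.643).

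Idi1, the isomerase that interconverts isopentenyl and dimethylallyl diphosphate, measured 372, 361 and 357 CPM in Control and 433, 445 and 587 CPM in GATA6KO replicates 1 to 3. All 3 GATA6KO values were above all Control values. The log2 fold change of 0.43 (SE 0.13) did not pass the test (edgeR adjusted p = 0.0841), and DESeq2 called it (adjusted p = 0.028). Pmvk, which adds the second phosphate to mevalonate, went the other way with 75.4, 78.3 and 75.9 CPM in Control and 69.7, 34.3 and 55.4 CPM in GATA6KO. Its groups did not overlap, and its log2 fold change of -0.53 (SE 0.24) was not called (edgeR adjusted p = 0.184).

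Mvd, the decarboxylase that makes isopentenyl diphosphate, measured 140, 129 and 144 CPM in Control and 142, 64.0 and 78.4 CPM in GATA6KO replicates 1 to 3. GATA6KO replicate 1 was within the Control range and the other two were below it (edgeR adjusted p = 0.242). Acat2, the cytosolic thiolase that makes acetoacetyl-CoA, had its lowest value, 151 CPM, in GATA6KO replicate 2, with 253 to 286 CPM in the other 5 libraries. Mvk, mevalonate kinase, and Fdps, farnesyl diphosphate synthase, had mean levels of 52.7 and 429 CPM in Control and 53.2 and 404 CPM in GATA6KO.

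The squalene and sterol arm carries farnesyl diphosphate to cholesterol, and none of its 11 genes was called. Their log2 fold changes ran from -0.44 (Lss) to 0.44 (Tm7sf2). Tm7sf2 and Hsd17b7 had GATA6KO values above every Control value. Tm7sf2, a sterol reductase, measured 37.7, 37.0 and 32.9 CPM in Control and 54.3, 38.4 and 53.1 CPM in GATA6KO, a log2 fold change of 0.44 (SE 0.15, edgeR adjusted p = 0.108). Tm7sf2 overlaps Vps51 on the same strand, so the division of reads between them is uncertain. Hsd17b7, a sterol ketone reductase, measured 67.1, 66.1 and 58.3 CPM in Control and 73.8, 79.6 and 89.3 CPM in GATA6KO. Its log2 fold change of 0.34 (SE 0.11) was not called by edgeR (adjusted p = 0.0843) and was called by DESeq2 (adjusted p = 0.0411).

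Lss, the cyclase that forms lanosterol, measured 297, 284 and 289 CPM in Control and 322, 141 and 180 CPM in GATA6KO replicates 1 to 3. GATA6KO replicate 1 was above the Control range and the other two were below it (log2 fold change -0.44, SE 0.29, edgeR adjusted p = 0.333). Fdft1, squalene synthase, measured 226, 236 and 253 CPM in Control and 259, 107 and 240 CPM in GATA6KO. Its low value is that of GATA6KO replicate 2. Fdft1 lies on chromosome 14, whose genes were low in that library, and the part of chromosome 14 in this value was not tested. Sqle, the epoxidase that acts on squalene, measured 247 to 259 CPM in Control and 228 to 297 CPM in GATA6KO (log2 fold change 0.02, 95% interval from -0.27 to 0.30).

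The 6 remaining sterol enzymes had mean levels in GATA6KO of 0.871 to 1.09 times those in Control. They were Cyp51, the lanosterol demethylase, at 397 and 370 CPM in Control and GATA6KO, and Msmo1, a methyl sterol oxidase, at 306 and 299 CPM. Nsdhl, a sterol decarboxylase, stood at 128 and 137 CPM. Ebp, the sterol isomerase, stood at 50.2 and 54.8 CPM, and the desaturase Sc5d at 118 and 105 CPM. Dhcr7, which makes cholesterol in the last step of one branch, stood at 88.2 and 76.8 CPM. Intervals of 95% for the 18 sterol enzymes lay between -1.21 and 0.82 on the log2 scale. Of these 18, edgeR called 0, against 12.4% of all genes tested. DESeq2 called 2 (Idi1 and Hsd17b7), against 22.0% of all genes tested that DESeq2 called. An unadjusted edgeR p below 0.05 was reached by 3 (Idi1, Hsd17b7 and Tm7sf2), against 31.7% of all genes tested.

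**Figure D2:**
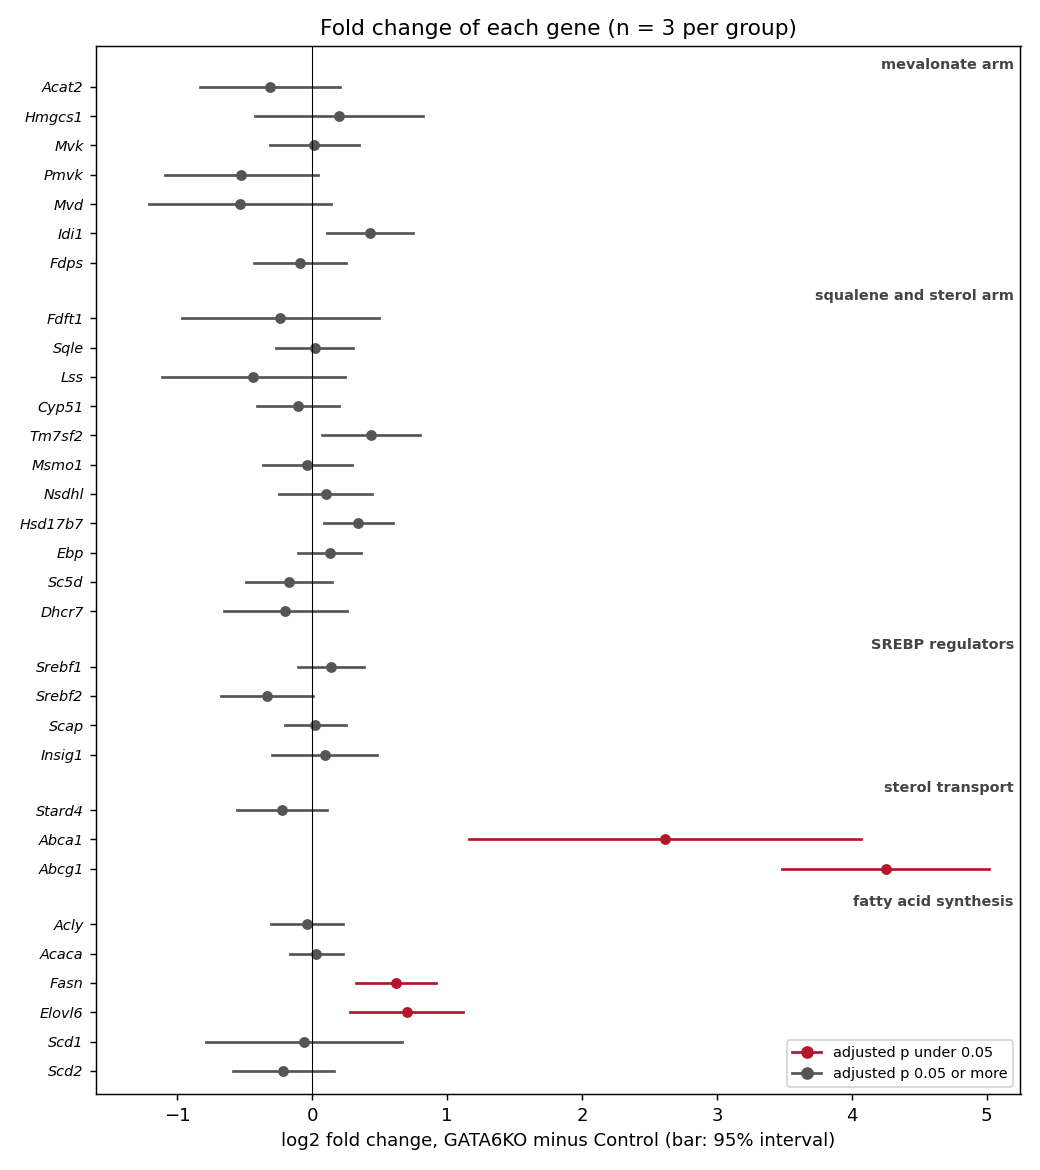
Points are edgeR log2 fold changes of GATA6KO over Control for the 31 genes and bars their 95% intervals. Only Abca1, Abcg1, Fasn and Elovl6, in red, passed the adjusted threshold, and the intervals of all mevalonate arm genes other than Idi1 include 0.

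The GATA6KO libraries differed from each other in these genes. The 18 enzymes of sterol synthesis summed to 3925, 3898 and 3928 CPM in Control replicates 1 to 3 and to 4591, 2958 and 4033 CPM in GATA6KO replicates 1 to 3. The sum of GATA6KO replicate 1 was thus above all Control libraries, that of replicate 2 below them and that of replicate 3 slightly above. A sum is weighted to abundant genes, and in replicate 3 Hmgcs1 (756 CPM) and Idi1 (587 CPM) were above Control. In that library 10 of the 18 enzymes were below the Control range and 7 above it. These are 55.6% and 38.9%, against 41.8% and 42.5% of all genes tested. The median SD of these enzymes on the log2 scale was 0.0357 over Control and 0.277 over GATA6KO libraries, against 0.0944 and 0.277 over all genes tested.

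Among the GATA6KO libraries, replicate 2 was the lowest for 14 of the 18 enzymes (77.8%), while it was the lowest for 35.3% of all genes tested. Replicate 1 was the highest for 15 of the 18 (83.3%), against 37.5% of all genes tested. The median log2 ratio of the 18 enzymes to the Control mean was 0.15, -0.38 and -0.06 in GATA6KO replicates 1 to 3, where all genes tested had medians of -0.01, 0.00 and 0.00. In GATA6KO replicate 2, 4 of the 18 were below 0.5 times the Control mean, which were Pmvk, Mvd, Fdft1 and Lss. They are 22.2% of the 18, against 11.5% of all genes tested. That library also had the lowered chromosome 14. Its mitochondrial share, 2.84%, was close to the 2.81% of GATA6KO replicate 3. Of these 4 genes only Fdft1 is on chromosome 14, and the part of library quality in the rest was not tested.

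**Figure D3:**
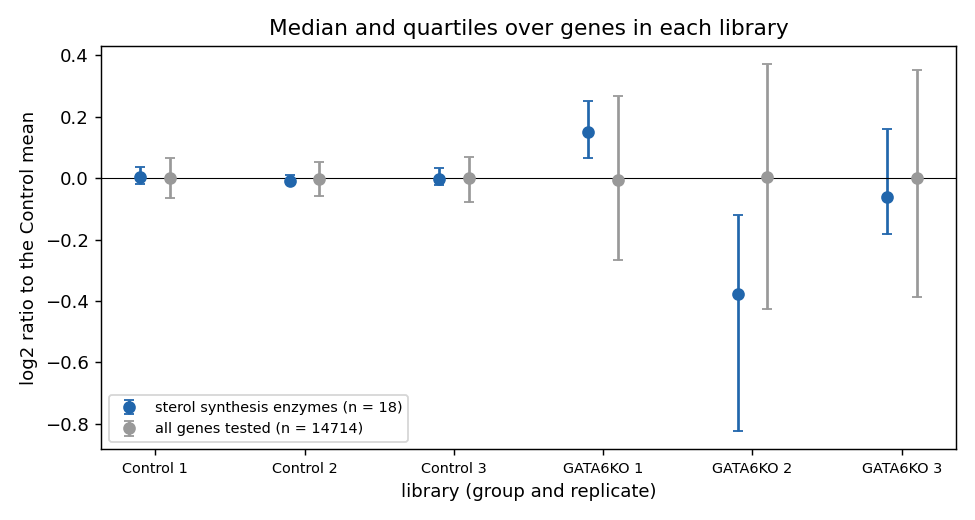
For each of the 6 libraries, points are the median log2 ratio to the Control mean over the 18 sterol synthesis enzymes (blue) and over all 14714 genes tested (grey), and bars are quartiles over genes, not error bars. The blue medians are 0.15, -0.38 and -0.06 in GATA6KO replicates 1 to 3, and the grey medians lie between -0.01 and 0.00.

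Leaving out 1 GATA6KO library changed which members passed. Without GATA6KO replicate 1, the comparison called 7 members lower (Mvd, Lss, Pmvk, Dhcr7, Srebf2, Scd1 and Scd2) and 6 higher, when it called 4360 genes in all instead of 1823. Of 15136 genes tested in that fit, 2125 were called lower and 2235 higher. Lss had a log2 fold change of -0.85 and Mvd of -0.95 in that fit (edgeR adjusted p = 0.00834 and 0.00583). Without GATA6KO replicate 2 no member was called lower and 5 were called higher, among them Hmgcs1 (log2 fold change 0.46, edgeR adjusted p = 0.0381) and Tm7sf2 (0.58, adjusted p = 0.0159). Of 15128 genes tested without that library, 1045 were called lower and 1299 higher.

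The 4 regulators of SREBP activity were not called. Srebf2, which encodes SREBP2, measured 534, 517 and 571 CPM in Control and 511, 419 and 355 CPM in GATA6KO replicates 1 to 3. All 3 GATA6KO values were below the Control values, and the log2 fold change of -0.34 (SE 0.14) did not pass the test (edgeR adjusted p = 0.164). Srebf1, which encodes both forms of SREBP1, measured 147, 139 and 134 CPM in Control and 162, 164 and 135 CPM in GATA6KO. The table sums its forms into 1 value, so they cannot be told apart. Scap, the escort of SREBPs, stood at 65.5 ± 5.32 CPM in Control and 66.5 ± 2.77 CPM in GATA6KO (SD, n = 3 each). Insig1, which retains SCAP and is itself an SREBP target, measured 265, 267 and 270 CPM in Control and 355, 226 and 272 CPM in GATA6KO (log2 fold change 0.09, edgeR adjusted p = 0.737). Its order over the GATA6KO libraries, highest in replicate 1 and lowest in replicate 2, was that of Hmgcs1. This order was not particular to the pair. Of the 31 genes, replicate 1 was the highest GATA6KO library for 22 and replicate 2 the lowest for 20, against 37.5% and 35.3% of all genes tested.

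The LXR-induced sterol exporters Abcg1 and Abca1 rose from low levels. Abcg1 (ENSMUSG00000024030, chromosome 17, 31057675 to 31117988), which passes sterols to lipoprotein particles, measured 0.219, 0.173 and 0.233 CPM in Control and 4.41, 3.15 and 4.57 CPM in GATA6KO replicates 1 to 3. They rest on few reads in Control, 5, 5 and 7 counts, and on 132, 96 and 137 counts in GATA6KO, with no overlap. Its mean level was 19.4 times as high in GATA6KO, with a log2 fold change of 4.25 (SE 0.32, edgeR adjusted p = 0.00153). It passed the filter on low counts only through its GATA6KO libraries. It was called in all 15 alternative fits, which reuse the same libraries, with log2 fold changes from 4.12 to 4.40.

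Abca1 (ENSMUSG00000015243, chromosome 4, 53030787 to 53159895), which loads lipid onto apolipoprotein particles, measured 0.570, 0.485 and 0.333 CPM in Control and 1.67, 1.44 and 5.40 CPM in GATA6KO replicates 1 to 3. The groups did not overlap, and GATA6KO replicate 3 was far above the other two. The reads behind these values numbered 13, 14 and 10 in Control, then 50, 44 and 162 in GATA6KO. The level of the filter on low counts was reached in 2 Control libraries and in all 3 GATA6KO libraries. A log2 fold change of 2.61 was found (SE 0.61, edgeR adjusted p = 0.0389), or 1.75 without GATA6KO replicate 3 (adjusted p = 0.0335). The call was lost without any 1 of the Control libraries (adjusted p = 0.127, 0.144 and 0.170), and limma-voom did not make it. Per kilobase of exon, both exporters were the lowest of the 31 genes in Control, at 0.0447 CPM per kb for Abca1 and 0.0286 CPM per kb for Abcg1.

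ABCA1 and ABCG1 are also abundant in macrophages. The summed level of the leukocyte markers was 11.2 to 14.5 CPM in Control and 3.17 to 5.68 CPM in GATA6KO. Cd68, a lysosomal protein that other cells also make, gave most of it. The pan-leukocyte marker Ptprc had 1 to 11 counts in Control and 4 to 11 in GATA6KO. For the macrophage marker Adgre1 the Control libraries held 0, 0 and 1 counts, and the GATA6KO libraries 4, 5 and 0, in replicate order. The part of macrophage RNA in the exporters' values was not tested.

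Stard4, a carrier of cholesterol between membranes and an SREBP target, measured 239, 248 and 263 CPM in Control and 234, 171 and 236 CPM in GATA6KO. Its 3 GATA6KO values were below the Control values, by little in replicates 1 and 3, and it was not called (log2 fold change -0.23, SE 0.14, edgeR adjusted p = 0.310).

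**Figure D4:**
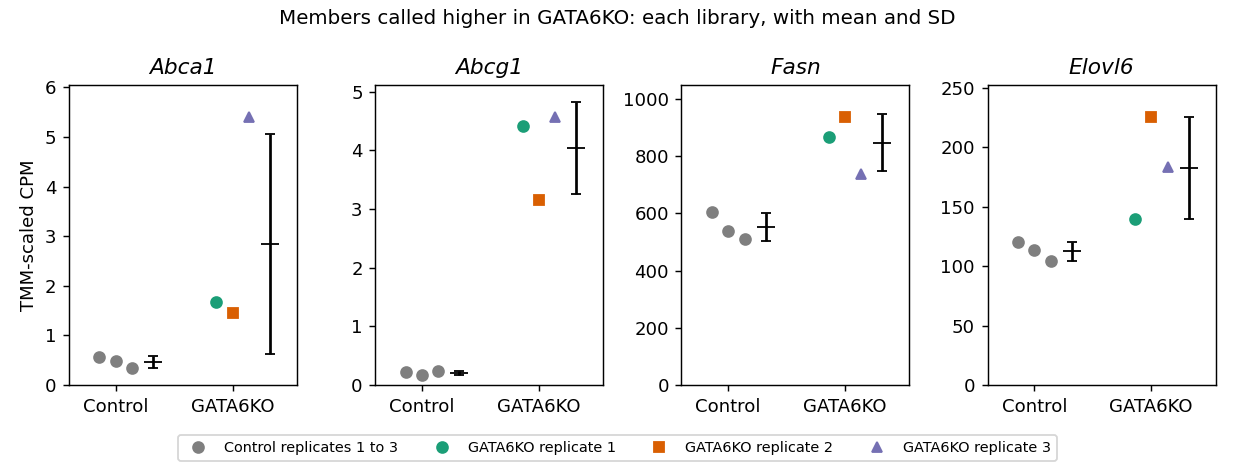
Scaled CPM of the 4 genes called higher in GATA6KO, with each library as a point and the mean and SD of 3 libraries beside it, on vertical axes that start at 0. In each panel the 3 GATA6KO points lie above the 3 Control points, and the highest GATA6KO library differs between genes.

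Fasn and Elovl6 rose among the 6 fatty acid genes, against 6.92% of all genes tested that rose, and the other 4 were not called. Fasn (ENSMUSG00000025153, chromosome 11, 120805846 to 120824547), the synthase that builds palmitate, measured 606, 539 and 512 CPM in Control and 866, 937 and 739 CPM in GATA6KO replicates 1 to 3. Its mean level was 1.53 times as high, a log2 fold change of 0.62 (SE 0.12, edgeR adjusted p = 0.0258). Elovl6 (ENSMUSG00000041220, chromosome 3, 129532355 to 129638495), which lengthens palmitate to stearate, measured 120, 113 and 104 CPM in Control and 139, 226 and 183 CPM in GATA6KO. Its mean level was 1.62 times as high, a log2 fold change of 0.70 (SE 0.18, edgeR adjusted p = 0.0482). For both genes the groups did not overlap, and GATA6KO replicate 2, the lowest library for most sterol enzymes, had the highest value. Without any 1 of the Control libraries neither was called (adjusted p = 0.0729 to 0.141 for Fasn and 0.137 to 0.208 for Elovl6). Elovl6 was also not called without GATA6KO replicate 2 or 3 (adjusted p = 0.0565 and 0.0913), nor by limma-voom.

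The enzymes upstream of Fasn were not called. Acly, which makes cytosolic acetyl-CoA from citrate, stood at 353 ± 4.34 CPM in Control and 344 ± 43.4 CPM in GATA6KO, and Acaca, the acetyl-CoA carboxylase, at 154 ± 5.92 and 157 ± 7.22 CPM (SD, n = 3 each). The 95% interval of the log2 fold change was -0.30 to 0.23 for Acly and -0.17 to 0.22 for Acaca. Scd1 and Scd2 are desaturases that turn stearate into oleate. Scd1 measured 343, 323 and 322 CPM in Control and 485, 202 and 258 CPM in GATA6KO, so that GATA6KO replicate 1 lay above and the other two below Control (edgeR adjusted p = 0.909). Scd2 measured 2522, 2319 and 2423 CPM in Control and 2586, 1885 and 1790 CPM in GATA6KO (log2 fold change -0.21, SE 0.16, edgeR adjusted p = 0.388). The 2 genes are similar in sequence, and the division of reads between them is uncertain.

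Levels of the 31 genes in Control, per kilobase of exon, ranged widely. Scd2 was the highest at 443 CPM per kb (SD 18.5, n = 3), followed by Hmgcs1 at 133 (SD 0.592) and Acat2 at 111 (SD 1.93). Idi1 and Fdps came next at 104 and 102 CPM per kb, with SDs of 2.13 and 2.17, and did not differ beyond that spread. The 2 highest and the 2 lowest genes kept their place when the longest transcript was used as the length.

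Genes around these routes were taken from 5 further lists of 73 genes, of which 63 were tested. Of these 5 rose and 5 fell, against 12.4% of all genes tested that changed in either direction, and their median log2 fold change was -0.01. Of 10 tested genes for sterol sensing and SREBP processing, 1 rose and 1 fell, against 6.92% and 5.47% of all genes tested. Rnf145, a sterol-responsive ubiquitin ligase of the endoplasmic reticulum, rose from 142, 135 and 129 CPM to 206, 204 and 211 CPM in replicates 1 to 3 (log2 fold change 0.61, SE 0.08, edgeR adjusted p = 0.00654). Erlin1, a cholesterol-binding protein of the same membrane, fell from 47.5, 45.3 and 47.4 CPM to 27.4, 23.2 and 22.3 CPM (log2 fold change -0.94, SE 0.11, edgeR adjusted p = 0.00493). Both genes had GATA6KO values close to each other and well apart from Control.

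Of 14 tested genes for LXR targets and sterol handling, 1 rose and 1 fell, against 6.92% and 5.47% of all genes tested. Mylip, an LXR-induced ligase that removes lipoprotein receptors, rose from 0.833, 0.624 and 0.700 CPM to 5.15, 2.89 and 4.67 CPM (log2 fold change 2.56, SE 0.32, edgeR adjusted p = 0.00599). Soat2, which esterifies cholesterol in enterocytes and hepatocytes, fell from 7.89, 7.59 and 7.54 CPM to 0.869, 0.0984 and 0.434 CPM (log2 fold change -4.03, SE 0.63, edgeR adjusted p = 0.0118). Its paralog Soat1 was not called (log2 fold change -0.01, adjusted p = 0.984), nor was the LXR target Lpcat3, a phospholipid acyltransferase (log2 fold change 0.21, adjusted p = 0.445). The receptor LXR-beta (Nr1h2) had mean levels of 62.9 and 67.0 CPM in Control and GATA6KO, while Nr1h3 and the exporters Abcg5 and Abcg8 were too low to be tested. Soat1, Lpcat3 and the receptors were singled out after their values were seen.

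In the non-sterol isoprenoid branch 0 of 13 tested genes rose and 1 fell, against 6.92% and 5.47% of all genes tested. Rabggta, a subunit of the enzyme that attaches isoprenoids to Rab proteins, fell from 72.4, 70.0 and 78.5 CPM to 55.9, 34.6 and 46.3 CPM (log2 fold change -0.69, edgeR adjusted p = 0.0486). It lies on chromosome 14, and its lowest value is that of GATA6KO replicate 2.

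In fatty acid and lipid assembly 2 of 23 tested genes rose and 2 fell, against 6.92% and 5.47% of all genes tested. Fabp5, the epidermal type of fatty acid carrier, rose from 26.7, 28.0 and 30.1 CPM to 65.7, 62.0 and 90.3 CPM (log2 fold change 1.36, SE 0.16, edgeR adjusted p = 0.005). Dgat2, which completes triglycerides, rose from 21.6, 19.0 and 17.7 CPM to 36.0, 37.9 and 32.9 CPM (log2 fold change 0.87, edgeR adjusted p = 0.00777). Fads3, a desaturase, fell from 29.8, 26.5 and 30.0 CPM to 9.06, 11.2 and 12.9 CPM (log2 fold change -1.38, edgeR adjusted p = 0.00464). Mid1ip1, which promotes the assembly of acetyl-CoA carboxylase, fell from 178, 189 and 189 CPM to 140, 156 and 128 CPM (log2 fold change -0.39, edgeR adjusted p = 0.0476). Of 3 tested side-branch genes 1 rose, against 6.92% of all genes tested. Hsd3b7, an enzyme of bile acid synthesis, rose from 8.32, 4.47 and 6.47 CPM to 22.2, 47.6 and 15.3 CPM (log2 fold change 2.14, edgeR adjusted p = 0.0298).

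Of these 10 genes, Erlin1, Fads3 and Fabp5 were called in every alternative fit. Rnf145, Mylip, Soat2, Rabggta, Mid1ip1, Dgat2 and Hsd3b7 were not called without 1 or more of the Control libraries, at adjusted p of up to 0.189 (Mid1ip1).

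**Figure D5:**
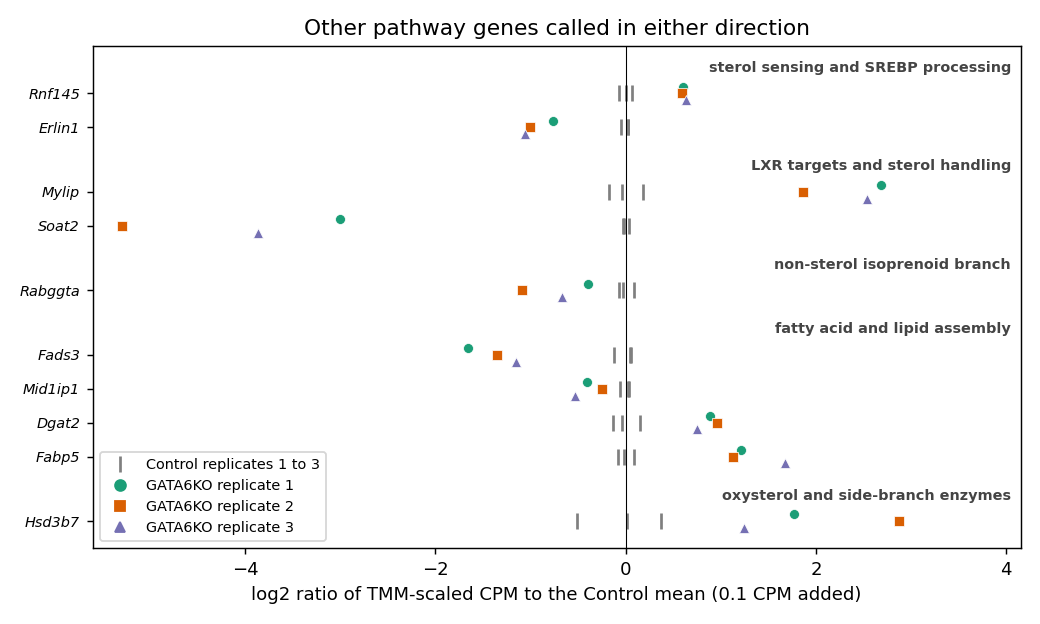
The 10 genes of the 5 further lists that passed the test are rows, and the horizontal axis is the log2 ratio of a library's scaled CPM to the Control mean, with 0.1 CPM added. For each gene the 3 GATA6KO symbols lie on 1 side of the 3 grey Control ticks, farthest for Soat2 on the left and for Hsd3b7 and Mylip on the right.

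Markers of lipid-rich cells were examined beside the fatty acid genes. The summed level of 5 adipocyte markers was 4.47 to 5.27 CPM in Control and 25.9, 84.3 and 18.7 CPM in GATA6KO replicates 1 to 3. Nearly all of it in GATA6KO came from Fabp4, which rose (log2 fold change 3.87, edgeR adjusted p = 0.013). The defining adipocyte genes were at or near 0, with Lep at 0 in every library and Adipoq at 0 in all but 1 Control library, which had 1 count. Cidec, of the same list, fell (log2 fold change -3.76, edgeR adjusted p = 0.0115). The summed level of 6 sebocyte markers was 3.90 to 5.65 CPM in Control and 11.2, 3.11 and 3.47 CPM in GATA6KO. In GATA6KO replicate 1 most of it came from Krt79 (6.32 CPM) and Fa2h (4.58 CPM). Mc5r and Awat1 had 0 counts in that library, and Awat2 stood at 0.301 CPM, against 0.467 to 0.789 CPM in Control. Hepatocyte markers summed to 0.734 to 0.936 CPM in Control and 0.602 to 2.66 CPM in GATA6KO.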

How the data were processed

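Per the labels' protocols, libraries were prepared after poly(A) selection with a kit that keeps strand (NEBNext Ultra II Directional). The deposited values are estimated counts for each gene, whole in the table and unscaled. Per the submitters' processing notes, Salmon 1.3.0 and the build mm10 were involved. How strand was set, which annotation served and how values were made whole is not given in the sources used here. Such estimates share out reads that fit several transcripts. Without a known strand setting, reads of Mvd, Fdft1, Cyp51 and Srebf1 and of protein-coding genes overlapping them on the other strand may not be told apart.

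Of 54418 identifiers, 54166 matched GENCODE M21 (mm10), which gave symbols, coordinates and exon lengths. Groups and replicate numbers came from sample titles. Genes passing edgeR's filterByExpr (14714) were scaled by TMM and tested by the quasi-likelihood test with robust estimation and no block (R 4.3.3, edgeR 4.0.16). Log2 fold changes are GATA6KO minus Control, and the 95% intervals use the test's own degrees of freedom. The pipeline was run on simulated counts with planted changes. Their spread was smaller than in these data and equal in both groups, so that run gives no error rates for the calls here. Alternatives were RLE or library-total scaling, DESeq2 1.42.0, limma-voom (limma 3.58.1), no filter, a stricter filter (1 CPM in all libraries of a group), no robust estimation, a replicate block, no chromosome 14, and each library left out. The members, lists and motifs were chosen with earlier results of these data known. All members were named, and up to 4 called genes of each further list that reached 1 CPM in a group. Some genes of these pathways are not reported here.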

Additional observations from a re-analysis of the deposited data

How the results depend on the processing

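Members called higher were 4 in the comparison as reported, 2 with limma-voom (Abcg1 and Fasn), and 1 to 6 with 1 library left out. Members called lower were 0, and 0 to 7 with 1 library left out, the 7 being without GATA6KO replicate 1. Further pathway genes called higher were 5, and 1 to 7 with 1 library left out. Those called lower were 5, but 3 with library-total scaling, and 2 to 11 with 1 library left out. Over all genes the count was 1823, against 3238 with DESeq2 and 332 to 4360 with 1 library left out. It was 425, 389 and 332 without Control replicates 1, 2 and 3. No named gene that was called changed direction in any alternative that gave it a value; Fdft1 and Rabggta have none without chromosome 14.

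With the replicate number as a block, 827 genes were called in all, 1 member higher (Abcg1) and 0 lower, and 4 further pathway genes higher and 3 lower. Deviations from the group mean correlated at -0.01, 0.07 and -0.09 between samples with the same number, for numbers 1 to 3. Between samples with different numbers the correlations ran from -0.15 to 0.16. With 3 libraries in each group, these values cannot show whether the numbers pair the libraries. Abca1 and Abcg1 had at most 14 counts in a Control library, which limits the precision of their fold changes. For 26 of 31 members the level per kilobase moved by more than the SD over Control when the longest transcript replaced the exon union.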

Other observations

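Some genes of acetyl-CoA and lipid supply outside the 31 differed widely among the GATA6KO libraries, and they were singled out after their values were seen. Acss2, which makes acetyl-CoA from acetate, measured 116, 112 and 128 CPM in Control and 114, 14.3 and 32.7 CPM in GATA6KO replicates 1 to 3 (log2 fold change -1.14, SE 0.67, edgeR adjusted p = 0.283). Slc25a1, the mitochondrial citrate carrier, measured 208, 216 and 231 CPM in Control and 206, 79.8 and 119 CPM in GATA6KO (adjusted p = 0.186). Lpin1, a phosphatase of triglyceride synthesis, measured 54.8, 51.5 and 65.9 CPM in Control and 62.7, 15.1 and 19.6 CPM in GATA6KO (adjusted p = 0.312). In Acss2, Slc25a1 and Lpin1, GATA6KO replicate 1 was near Control, replicates 2 and 3 were below it with replicate 2 the lowest, and none was called. Other genes of the same list varied in other orders. Me1 measured 114, 113 and 116 CPM in Control and 169, 185 and 84.7 CPM in GATA6KO replicates 1 to 3. Fads1 measured 34.4, 31.7 and 27.9 CPM in Control and 36.3, 11.3 and 38.8 CPM in GATA6KO.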
